A study of Mus musculus with 6 samples.

Results

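The histone genes and testis histone variants comprised 76 of the 26743 genes in the deposited count table. They were taken as the protein-coding genes whose names mark them as histones of the clustered Hist1 to Hist4 loci, as H2A, H3 or H1 genes named H2af, H3f3 or H1f, or as Hils1. Of these, 63 were clustered genes and 13 were variant genes outside that naming, 10 encoded linker H1 histones and 66 encoded core histones. RNA had been sequenced from whole testes of 3 wild type (WT) and 3 Trf2-/- mice, 1 library per mouse, at post natal day 21, when the first wave of spermatogenesis reaches round spermatids. Trf2 is a relative of the TATA-box binding protein TBP, and is listed in the table as Tbpl1. The Trf2-/- mice had no intact copy of the gene by their label, and the part of it that the allele lacks is not given in the sources used here. Total RNA depleted of ribosomal RNA was used, so that histone RNAs without a poly(A) tail were also captured.

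Histones package DNA: pairs of H2A, H2B, H3 and H4 form the nucleosome core and H1 binds the linker between cores. The clustered genes are copied into RNA mainly during S phase, and their transcripts end in a conserved stem-loop bound by Slbp in place of a poly(A) tail, whereas variant genes mostly give polyadenylated RNA throughout the cell cycle. Male germ cells add variants of their own, among them H1t (Hist1h1t), TH2A (Hist1h2aa) and TH2B (Hist1h2ba) in spermatocytes and Hils1 and H1fnt in spermatids, before transition proteins and protamines take the place of most histones.

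The stem-loop is shown first because nearly all the clustered genes carry it and nearly all the variants lack it. Each line below gives 28 bases of the gene strand after the stop codon (NCBIM37, the build of the deposited coordinates), with the stem-loop in capitals. The genes are the 3 abundant testis-specific clustered genes, the linker and H4 genes with the lowest adjusted p in the comparison, a gene that was lower in Trf2-/- testis and the one variant gene with a match.

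Hist1h1t (chr13:23788388-23788415, plus strand): cccaaaGGCTCTTTTAAGAGCCacttac
Hist1h2ba (chr13:24025593-24025620, minus strand): cccaaaGGCTCTTTTAAGAGCCacccac
Hist1h2aa (chr13:24026754-24026781, plus strand): caaaaaGGCTCTTTTCAGAGCCaccttc
Hist1h1c (chr13:23831375-23831402, plus strand): ccaaaaGGCTCTTTTCAGAGCCaccact
Hist1h4h (chr13:23623321-23623348, plus strand): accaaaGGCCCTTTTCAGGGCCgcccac
Hist2h2ab (chr3:96024250-96024277, plus strand): caaaaaGGCTCTTTTAAGAGCCaccaaa
H2afx (chr9:44143317-44143344, plus strand): cacaaaGGCCCTTTTAAGGGCCaccacc

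The motif searched on the gene strand was GG, any 2 bases, CTTTT, any base, AG, any 2 bases and CC, without gaps and within 150 bases after the stop codon. It was present in 57 of 75 histone genes with an annotated stop codon (76.0%), against 2 of 15015 other protein-coding genes that entered the test (0.0133%). On the opposite strand it was found in 2 histone genes. The form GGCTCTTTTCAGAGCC was shared by 34 genes, including the 5 somatic H1 genes and Hist1h2aa. Hist1h1t and Hist1h2ba carried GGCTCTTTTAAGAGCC, found in 9 genes, and 8 H4 genes carried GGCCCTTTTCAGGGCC. Among the variants H2afx alone had a match, in a form of its own.

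The libraries held 21582123 to 29859347 counts in WT and 15187062 to 24530489 in Trf2-/- testes, so that 3 counts, taken as the limit of detection, correspond to 0.105 to 0.190 CPM (counts in each 1000000 of a library, scaled by TMM factors). Such limits cover counting error only. Tbpl1 had 6119 to 8840 counts in WT and 882 to 1586 in Trf2-/- mice with a log2 fold change of -2.27, lower in every Trf2-/- mouse. Early spermatocyte and Sertoli cell markers were present in every library, while Prm2, a protamine of elongating spermatids, had at most 1 count in any mouse. The histone genes took 0.507%, 0.545% and 0.525% of all counts in the 3 WT mice and 0.615%, 0.655% and 0.681% in the 3 Trf2-/- mice, with no overlap between the genotypes. In whole testis, fewer cells of a type and less RNA per cell cannot be told apart.

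Of the 76 genes, 69 had enough counts to be tested. In edgeR's quasi-likelihood test, with Benjamini-Hochberg adjustment over all 16924 genes tested, 23 histone genes were higher in Trf2-/- testis at an adjusted p below 0.05 (33.3%, where 11.2% of all tested genes were higher) and 3 were lower (4.35%, against 20.2%). Leaving out WT mouse 1 reduced the higher genes to 12, and leaving out Trf2-/- mouse 2 reduced them to 14. Scaling by library size alone raised them to 37. The changes were small. The higher genes rose 1.13 to 1.70-fold and 0 reached 2-fold, a size reached upward by 0.609% of all tested genes; at an unadjusted p below 0.05, and with DESeq2, the count was also 0. Hils1 was the only histone gene that fell at least 2-fold, against 4.3% of all tested genes. The median log2 fold change was 0.27 over the tested histone genes and 0.04 over all tested genes. In 31 histone genes every Trf2-/- mouse lay above every WT mouse (22.3% of all genes did so), and in 3 every one lay below (26.8% of all genes).

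**Figure D1:**
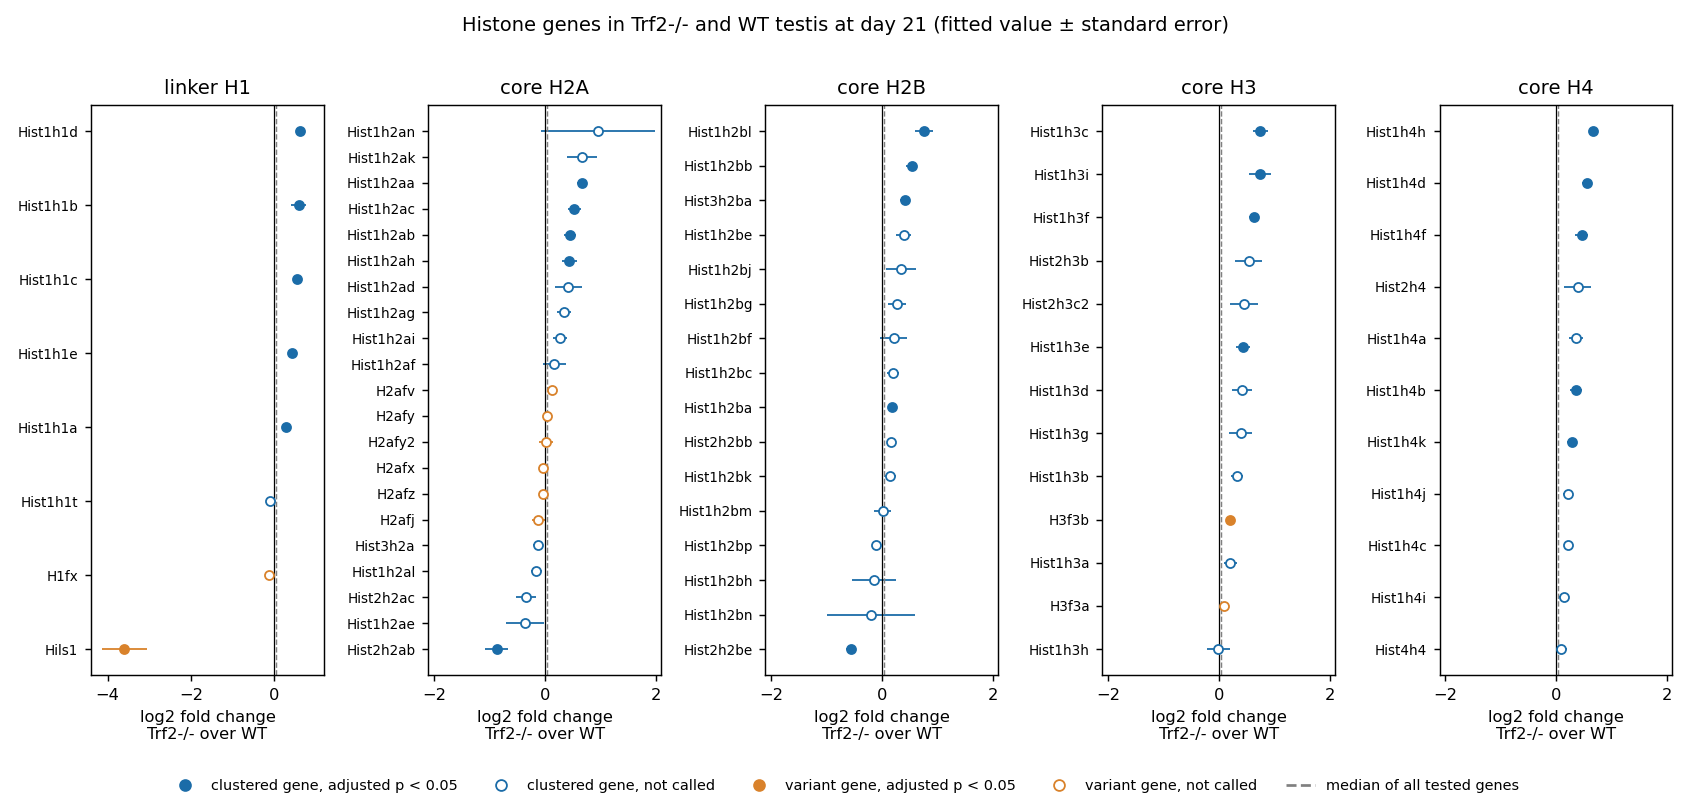
Log2 fold change (Trf2-/- over WT, x axis) with its standard error for each of the 69 tested histone genes, 1 panel per family, with filled symbols for genes at an adjusted p below 0.05, blue for clustered and orange for variant genes. The 23 higher genes sit between 0.18 and 0.76, nearly all of them clustered, while Hils1 sits at -3.60.

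Higher and lower calls were divided unevenly between the classes, where 11.2% of all tested genes were higher and 20.2% lower. Among clustered genes 22 of 59 tested were higher (37.3%) and 2 lower (3.39%), with a median log2 fold change of 0.36. Of the 10 tested variants 1 was higher (10%, near the share of all tested genes) and 1 lower (10%), with a median of -0.00365. Linker genes gave 5 higher (62.5%) and 1 lower of 8, core genes 18 higher (29.5%) and 2 lower of 61. Among the clustered core genes, 4 of 15 H2A, 4 of 16 H2B, 4 of 11 H3 and 5 of 11 H4 genes were higher. All 11 tested H4 genes had a fold change above 0, and H2A and H2B had the 2 lower clustered genes, 1 each. The difference between classes was not tested, since genes of a class share sequence and are not replicates.

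The testis-specific variants are taken first. Hist1h2ba encodes TH2B, the main H2B of spermatocytes, and had the highest level per length of all 76 genes, 3489 ± 31.6 (SD, n = 3) CPM per kilobase in WT and 3945 ± 149 in Trf2-/- testis. Its CPM were 1343, 1367 and 1362 in the WT mice and 1522, 1484 and 1598 in the Trf2-/- mice (ENSMUSG00000050799, chr13:24025637-24026025). Every Trf2-/- mouse was thus above every WT mouse, and the gene passed the test with a log2 fold change of 0.18 ± 0.04 (SE), adjusted p = 0.0167. The call was lost without WT mouse 1 (adjusted p = 0.0629), WT mouse 2 (0.0589) or Trf2-/- mouse 1 (0.0610). TH2B made up 84.2% ± 0.31 of H2B counts in WT and 83.9% ± 0.965 in Trf2-/- testis (SD, exact permutation p = 0.8, 0.889 after Benjamini-Hochberg adjustment over the 10 shares computed in this way, n = 3 each).

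Hist1h2aa encodes TH2A and lies 305 bases from Hist1h2ba on the opposite strand (ENSMUSG00000060081, chr13:24026331-24026720). It had CPM of 233, 285 and 277 in WT and 396, 397 and 478 in Trf2-/- mice. The lowest Trf2-/- mouse was well above the highest WT mouse, and the log2 fold change was 0.68 ± 0.09 (SE), adjusted p = 0.00118, the largest among the testis-specific genes that rose. It formed 67.4%, 70.8% and 68.4% of clustered H2A counts in WT and 75.7%, 73.9% and 75.2% in Trf2-/- mice. Per length, the TH2A level was 17.3%, 20.8% and 20.3% of the TH2B level in WT and 25.9%, 26.7% and 29.8% in Trf2-/- mice. The ratio of the paired genes was higher in all 3 Trf2-/- mice. An exact two-sided permutation test of 3 against 3 mice cannot go below p = 0.1, the value it gave here, and 0.2 after adjustment over the same 10 shares.

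Hist1h1t, the linker histone of pachytene spermatocytes (ENSMUSG00000036211, chr13:23787680-23788588), had CPM of 519, 504 and 474 in WT and 461, 481 and 463 in Trf2-/- mice. The genotypes overlapped and the gene did not pass the test, with a log2 fold change of -0.09 ± 0.05 (SE), adjusted p = 0.181. Its share of linker counts was 38.9%, 35.2% and 35.7% in WT and 31.3%, 29.3% and 28.5% in Trf2-/- mice. These shares did not overlap (exact permutation p = 0.1, the smallest possible, and 0.2 after adjustment).

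Hils1, the spermatid-specific linker histone (ENSMUSG00000038994, chr11:94828975-94829770), was scarce at this age. Its counts were 24, 27 and 24 across WT animals and 1, 4 and 0 across Trf2-/- animals, so that every WT mouse was above every Trf2-/- mouse. It had the largest change of all the histone genes tested, with a log2 fold change of -3.60 ± 0.54 (SE), adjusted p = 0.00158. The size rests on few counts, and it was -5.09 without Trf2-/- mouse 2, the mouse with 4 counts. The other spermatid and germline variants were not tested. H1fnt, a spermatid linker histone, had 1, 2 and 3 counts in WT and none in any Trf2-/- mouse, and H2afb1, a short H2A variant, had a single count in 1 WT mouse. H1foo, the oocyte linker histone, had 7, 6 and 0 counts in WT and 2, 1 and 2 in Trf2-/- mice.

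**Figure D2:**
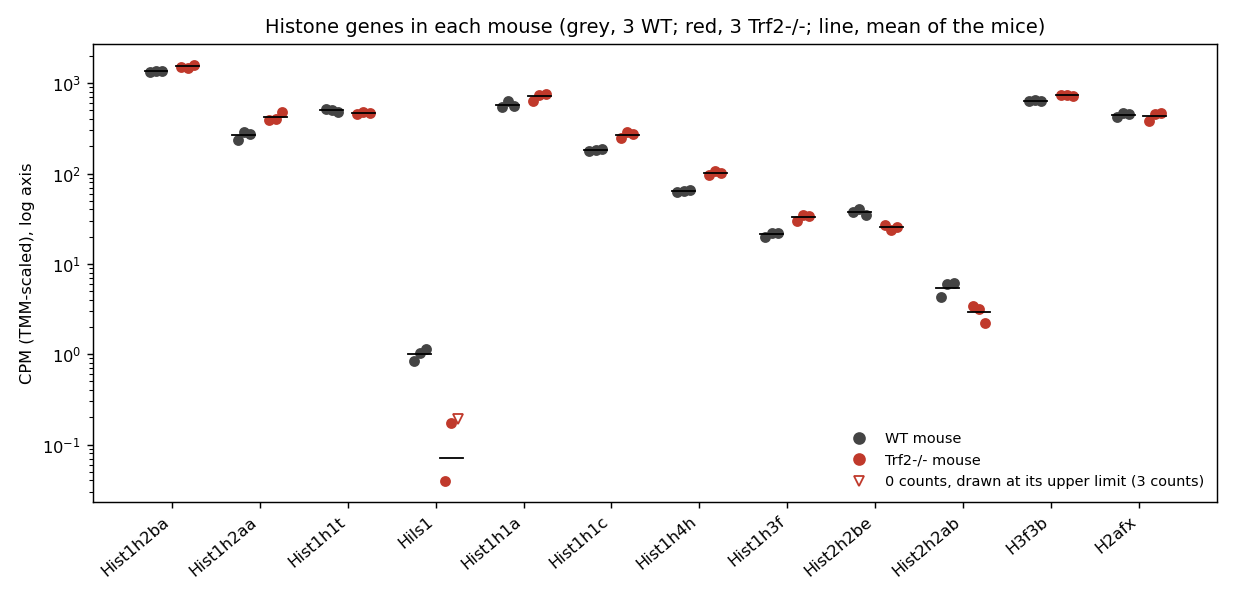
CPM on a log axis in each of the 3 WT (grey) and 3 Trf2-/- (red) mice for 12 histone genes, with a line at each group's mean and a triangle at the detection limit for the mouse with 0 counts. Hist1h2aa, Hist1h1c, Hist1h4h and Hist1h3f are higher in every Trf2-/- mouse, Hils1, Hist2h2be and Hist2h2ab lower, and Hist1h1t and H2afx overlap.

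The 5 somatic-type H1 genes of the Hist1 cluster were all higher in Trf2-/- testis. Hist1h1a, the most abundant linker gene, had CPM of 543, 642 and 555 in WT and 639.9, 735 and 763 in Trf2-/- mice. Its ranges met, with the lowest Trf2-/- mouse just under the highest WT mouse, and its log2 fold change was 0.30 ± 0.08 (SE), adjusted p = 0.0242. Hist1h1c had CPM of 176, 183 and 189 in WT and 247, 286 and 274 in Trf2-/- mice. Here the groups were far apart, and the log2 fold change was 0.56 ± 0.06 (SE), adjusted p = 0.000505. Its share of linker counts was 13.2%, 12.7% and 14.2% in WT and 16.7%, 17.4% and 16.9% in Trf2-/- mice.

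Hist1h1d had CPM of 17.2, 17.7 and 19.8 in WT and 27.4, 28.0 and 29.1 in Trf2-/- mice, a log2 fold change of 0.63 ± 0.08 (SE), adjusted p = 0.000691. Hist1h1e had 39.1, 48.0 and 47.5 in WT and 60.7, 67.7 and 52.6 in Trf2-/- mice, a log2 fold change of 0.43 ± 0.11 (SE), adjusted p = 0.0148. Hist1h1b was the least abundant of them, at 9.65, 6.51 and 9.64 in WT and 13.7, 14.8 and 10.1 in Trf2-/- mice, with a log2 fold change of 0.59 ± 0.19 (SE), adjusted p = 0.0399. In these 3 genes no Trf2-/- mouse fell into the WT range, although Trf2-/- mouse 3 came close for Hist1h1b. The call for Hist1h1b was lost in 5 of the 6 fits that left out 1 mouse, and those for Hist1h1a and Hist1h1e in 3 each, both of them without WT mouse 1 and without Trf2-/- mouse 2 (adjusted p up to 0.132, 0.0981 and 0.0623). Hist1h1c and Hist1h1d kept theirs in all 6.

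Summed over these 5 genes, H1 RNA was 785, 897 and 821 CPM in WT and 989, 1131 and 1128 in Trf2-/- mice, a ratio of 1.30. H1fx, a linker variant outside the clusters, was at 30.4, 31.5 and 32.8 CPM in WT and 26.1, 29.2 and 31.7 in Trf2-/- mice. It overlapped between the genotypes and did not pass the test (log2 fold change -0.13 ± 0.08 (SE), adjusted p = 0.250). H1f0, the linker histone of differentiated and resting cells, is listed as a pseudogene in the table and was left out of all counts. Its counts were 733, 653 and 579 in WT and 918, 805 and 669 in Trf2-/- mice, and its CPM were higher in each Trf2-/- mouse, with a log2 fold change of 0.53 ± 0.09 (SE), adjusted p = 0.00213.

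Among the clustered H4 genes, which encode one and the same protein, Hist1h4h gave the lowest adjusted p of all the histone genes. It had CPM of 62.1, 64.3 and 65.2 in WT and 96.4, 106 and 102 in Trf2-/- mice, a clear separation, with a log2 fold change of 0.67 ± 0.05 (SE), adjusted p = 0.000215. Hist1h4d was at 27.0, 32.8 and 28.0 CPM in WT and 43.4, 40.1 and 46.4 in Trf2-/- mice (log2 fold change 0.56 ± 0.09 (SE), adjusted p = 0.00184). Hist1h4f, Hist1h4b and Hist1h4k also passed, with log2 fold changes of 0.46, 0.36 and 0.29, the last of them with overlapping groups. These 3 calls were lost in 4, 5 and 4 of the 6 fits that left out 1 mouse, with adjusted p up to 0.0783, 0.126 and 0.154, each time including WT mouse 1 and Trf2-/- mouse 2. That of Hist1h4k was also lost when 10 counts were required in every mouse (adjusted p = 0.0531). Hist1h4c, the H4 gene with the highest level per length (428 ± 11.3 CPM per kilobase in WT), was above WT in every Trf2-/- mouse. It missed the threshold at a log2 fold change of 0.21 ± 0.07 (SE), adjusted p = 0.0515. Hist4h4, on chromosome 6 apart from the other loci, overlapped between genotypes (94.0, 111 and 111 CPM in WT, 97.3, 119.7 and 121 in Trf2-/- mice).

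The clustered H3 genes had low CPM in these libraries, and 4 of them rose. From 20.3% (Hist2h3b) to 75.2% (Hist1h3d) of their exon windows of read length were found once in the genome. Their levels may therefore be understated, and whether they are low in the tissue was not tested. Hist1h3f had CPM of 19.9, 21.9 and 21.9 in WT and 30.0, 34.9 and 33.5 in Trf2-/- mice, with a log2 fold change of 0.63 ± 0.08 (SE), adjusted p = 0.000781. Hist1h3c, at 3.24, 3.75 and 3.79 in WT and 5.44, 6.05 and 6.70 in Trf2-/- mice, changed by 0.75 ± 0.14 (SE), adjusted p = 0.00459. Hist1h3i, at 1.64, 1.84 and 2.30 in WT and 2.70, 3.43 and 3.54 in Trf2-/- mice, changed by 0.74 ± 0.20 (SE), adjusted p = 0.0205. Hist1h3e had a log2 fold change of 0.43. In each of these the genotypes were separate. The call for Hist1h3i was lost in 3 of the 6 fits with a mouse left out (adjusted p up to 0.0841) and that for Hist1h3e in 4 (up to 0.0975), both of them without WT mouse 1 and without Trf2-/- mouse 2. Hist1h3a had the highest level per length among the clustered H3 genes (25.2 ± 3.06 CPM per kilobase in WT), overlapped between genotypes and did not pass (log2 fold change 0.21).

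For H2A and H2B, the largest rise among called genes was that of Hist1h2bl, from 2.68, 2.91 and 3.31 CPM in WT to 5.24, 4.37 and 5.50 in Trf2-/- mice (log2 fold change 0.76 ± 0.16 (SE), adjusted p = 0.00653). Hist1h2bb was more abundant, at 40.2, 44.2 and 41.7 in WT and 52.2, 64.0 and 67.6 in Trf2-/- mice, with a log2 fold change of 0.54 ± 0.09 (SE), adjusted p = 0.00296. Hist3h2ba, a core gene outside the large clusters, was at 48.9, 54.9 and 55.7 in WT and 62.1, 73.5 and 78.7 in Trf2-/- mice and changed by 0.42 ± 0.09 (SE), adjusted p = 0.00824. All 3 genes were higher in every Trf2-/- mouse. Hist1h2ac (0.54), Hist1h2ab (0.46) and Hist1h2ah (0.45) completed the higher H2A genes beside TH2A. The call for Hist1h2ah was lost in 5 of the 6 fits with a mouse left out (adjusted p up to 0.0876), all but that without Trf2-/- mouse 1, and that for Hist1h2ab without WT mouse 1 (0.0531). The highest fold change of any clustered gene, that of Hist1h2an, did not pass the test (log2 fold change 0.96 ± 1.02 (SE), adjusted p = 0.497). Its counts were 2, 50 and 3 in WT and 61, 3 and 27 in Trf2-/- mice, without order between the genotypes.

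Both lower clustered genes lie in the small Hist2 locus on chromosome 3. They are 2 of its 7 tested genes (28.6%), near the 20.2% of all tested genes that were lower. Hist2h2be, an H2B gene, was at 37.2, 40.8 and 34.5 CPM in WT and 26.7, 23.8 and 25.7 in Trf2-/- mice (ENSMUSG00000068854, chr3:96025044-96027661). The groups did not overlap, the log2 fold change was -0.56 ± 0.08 (SE), adjusted p = 0.00118, and no stem-loop match was found after its stop codon. Hist2h2ab, an H2A gene close by (ENSMUSG00000063689, chr3:96023788-96024231), was at 4.32, 5.94 and 6.09 in WT and 3.45, 3.13 and 2.21 in Trf2-/- mice. All 3 Trf2-/- mice were below WT, with a log2 fold change of -0.87 ± 0.20 (SE), adjusted p = 0.0123, and the adjusted p was 0.0523 without WT mouse 2. All 393 annotated exon bases of Hist2h2ab are overlapped by exons of Gm15444 on the opposite strand, and the strand setting of the read counter is not given in the sources used here, so reads of the overlapping genes cannot be told apart. The other 5 tested Hist2 genes did not pass the test, and 4 of the 7 had a fold change above 0. One of these, Hist2h2bb, was higher in every Trf2-/- mouse at an unadjusted p of 0.0252 (edgeR's adjusted p = 0.0702).

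Among the Hist1 genes 21 of 49 tested were higher and 0 lower in edgeR's quasi-likelihood test (median log2 fold change 0.36, against 0.16 for the 7 Hist2 genes). The higher genes are 42.9%, where 11.2% of all tested genes were higher and 20.2% lower. The difference between the loci was not tested. The lower count was 0 with DESeq2 and at an unadjusted p below 0.05 as well, and 7 genes were below 0 without passing. Apart from Hist1h2al they form 2 runs on chromosome 13. In the run at chr13:21807632-22135545, 5 of 17 tested genes were higher, with a median of 0.29. In the run at chr13:23622919-24026720, which holds all the H1 genes of the cluster but Hist1h1b, 16 of 31 were higher, with a median of 0.40. The first run is the more repetitive, with a median of 27.8% of 50-base windows found once in the genome, against 56.8% in the second.

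Of the 8 core variants tested, 1 passed the test. H3f3b, an H3.3 gene and the highest variant by counts, had CPM of 631, 644 and 633 in WT and 744, 739 and 720.1 in Trf2-/- mice. It was 1.16-fold higher, with no overlap (log2 fold change 0.21 ± 0.04 (SE), adjusted p = 0.00498). It gave 80.5% ± 0.31 of H3 counts in WT and 79.9% ± 0.77 in Trf2-/- testis (SD, exact permutation p = 0.3, 0.429 after adjustment, n = 3 each). This share is not divided by length, and H3f3b is 2976 bases long against 483 to 1249 for the clustered H3 genes. It therefore overstates the part of H3f3b per length. H3f3a, which encodes the same protein, was at 83.8, 84.2 and 79.0 in WT and 89.6, 84.9 and 89.5 in Trf2-/- mice and did not pass the test (log2 fold change 0.09 ± 0.05 (SE), adjusted p = 0.181), although every Trf2-/- mouse was above every WT mouse.

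H2afx, the H2A variant phosphorylated at DNA breaks and on the sex chromosomes of spermatocytes, was at 417, 468 and 453 CPM in WT and 385, 454 and 471 in Trf2-/- mice. The genotypes overlapped throughout (log2 fold change -0.03 ± 0.08 (SE), adjusted p = 0.787). H2afz and H2afv, which encode H2A.Z proteins, had log2 fold changes of -0.04 ± 0.06 and 0.12 ± 0.06 (SE). The macroH2A genes H2afy and H2afy2 were at 0.04 ± 0.05 and 0.02 ± 0.12, and H2afj was at -0.11 ± 0.11. None of these 5 passed the test, although H2afv was higher in every Trf2-/- mouse. When libraries were scaled by their size alone, H3f3a (log2 fold change 0.19, adjusted p = 0.0200), H2afv (0.22, adjusted p = 0.0154) and H2afy (0.14, adjusted p = 0.0466) also passed. The sign for H2afx, H2afz and H2afy2 changed with the scaling or with the mouse left out. H2afy3, listed as a pseudogene and so outside the counts, had 828, 704 and 572 counts in WT and 299, 275 and 148 in Trf2-/- mice, with a log2 fold change of -1.32 ± 0.10 (SE), adjusted p = 0.000176.

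All histone genes together gave 5276, 5598 and 5439 CPM in WT and 5988, 6364 and 6539 in Trf2-/- mice, a ratio of 1.16. Clustered H2A, led by TH2A, had the highest ratio (1.47), from 345, 403 and 405 CPM in WT to 522, 538 and 636 in Trf2-/- mice. TH2A alone went from a mean of 265 to 424 CPM, within class means of 384 and 565, so this rank rests largely on 1 gene. Without the testis-specific genes, all clustered core genes together had a ratio of 1.21 and the clustered linker genes 1.30. Clustered H3 gave 1.35, clustered H4 1.22 and clustered H2B 1.13. The core variants gave 1428, 1490.4 and 1449 CPM in WT and 1504, 1582 and 1581 in Trf2-/- mice, a ratio of 1.07. The Hist1 cluster as a whole gave 3569, 3799 and 3684 CPM in WT and 4199.9, 4464 and 4637 in Trf2-/- mice. The Hist2 cluster gave 84.9, 89.8 and 86.8 in WT and 80.0, 76.6 and 74.8 in Trf2-/- mice. Both sums had separate groups, in opposite directions. Hist2h2be alone fell from a mean of 37.5 to 25.4 CPM, while the Hist2 sum fell from a mean of 87.2 to 77.1. The direction of the Hist2 sum is not that of its genes in general, since 4 of the 7 tested had a fold change above 0. Clustered genes supplied 72.6% ± 0.241 of all histone counts in WT and 74.8% ± 0.465 in Trf2-/- testis (SD, exact permutation p = 0.1, 0.2 after adjustment, n = 3 each).

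**Figure D3:**
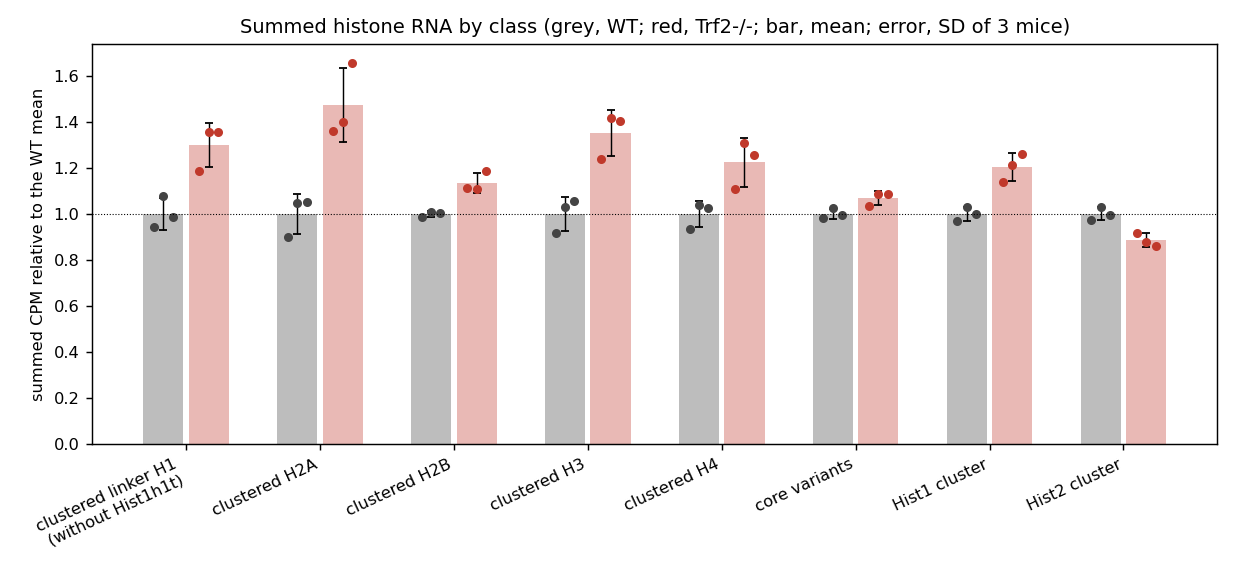
Summed CPM of each histone class relative to its WT mean (y axis) in 3 WT (grey) and 3 Trf2-/- (red) mice, with bars for means, error bars for the SD and a point for each mouse. Clustered H2A, which includes TH2A, lies highest in Trf2-/- testis (1.47), and among the classes plotted the mean of the Hist2 cluster lies below WT (0.88). Hist1h1t is left out of the linker class, while TH2A and TH2B are kept in theirs.

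Higher calls fell mostly on genes with the stem-loop. Of 53 tested genes with the motif, 22 were higher (41.5%, against 11.2% of all tested genes) and 1, Hist2h2ab, was lower. Their median log2 fold change was 0.35. Of 15 without it, H3f3b was higher and Hils1 and Hist2h2be were lower, with a median of 0.04. Hist2h3c2, which did not pass, has no annotated stop codon and was not searched. The motif and the clustered class cover nearly the same genes, so their shares cannot be told apart. The 6 clustered genes without a match had a median of 0.26, with 1 lower call and no higher one. H2afx, the variant with a match, did not pass the test.

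Many histone genes are near copies of each other, which limits what 50-base reads can assign to one gene, and the treatment of reads with several matches is not given in the sources used here. Of the 76 genes, 27 had under 50% of their 50-base exon windows found once in the genome and 2, Hist1h2ao and Hist2h2aa2, had none. The untested genes Hist1h4m and Hist1h4n had 10.2% and 7.1%. Hist1h2an had 14.2% and Hist1h2bl 17.2%, so their values are uncertain. The H1 genes were between 77.8% and 100%, Hist1h2aa was at 97.7% and Hist1h2ba at 61.8%. In any mouse Hist1h2ao had at most 1 count and Hist2h2aa2 at most 5. Levels and shares compared between genes may therefore understate the repetitive ones. Among the 46 tested genes with at least 50% unique windows, 17 were higher and 3 lower, with a median log2 fold change of 0.21. Among the 18 with at least 90%, 5 were higher (27.8%) and 2 lower, with a median of 0.07, and 7 of these 18 were variants, against 10 of all 69 tested. Leaving out the 9 genes whose exons overlap another gene left 21 higher and 2 lower of 60.

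**Figure D4:**
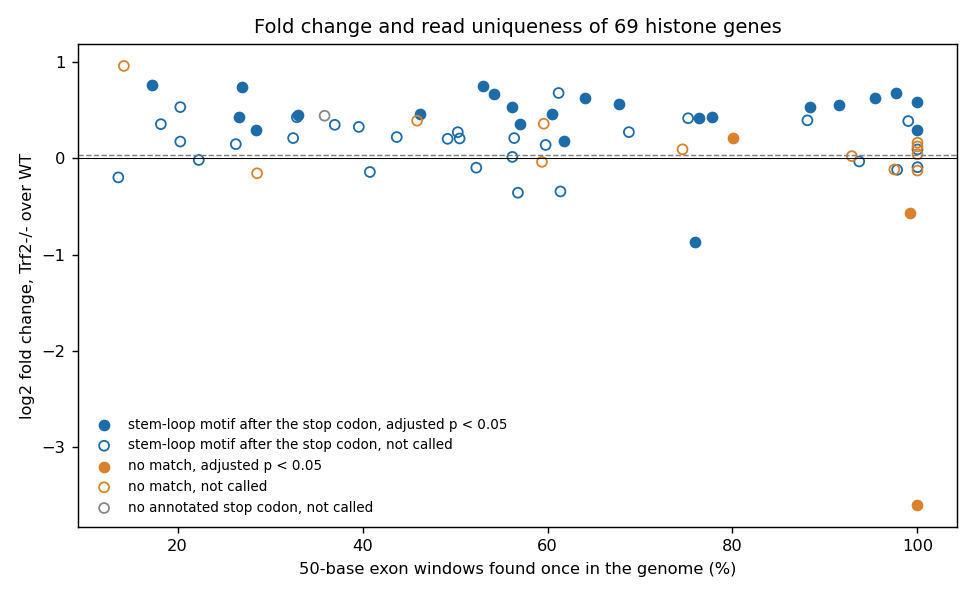
Log2 fold change (Trf2-/- over WT, y axis) against the percentage of 50-base exon windows found once in the genome (x axis) for 69 tested histone genes, blue with and orange without the stem-loop motif, grey for the 1 gene without an annotated stop codon, filled at an adjusted p below 0.05. Called genes occur at low and high uniqueness, and the highest value without a call, Hist1h2an at 0.96, has 14.2% unique windows.

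Promoters are shown because Trf2 is related to TBP, the factor that binds the TATA box, while Trf2 itself is known not to bind that sequence. RefSeq promoter sequences, from 250 bases before to 50 bases after the start, were matched for 69 of the 76 genes. The windows below are 24 bases of the gene strand in build GRCm38.p6, which is later than that of the counts, with TATAAA in capitals. They come from called genes of each class with the motif 20 to 45 bases before the start.

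Hist1h2aa (chr13:23934396-23934419, plus strand): ccattagacTATAAAtaggcgtgg
Hist1h1a (chr13:23763626-23763649, plus strand): gcactgctcTATAAAtactccgtg
Hist1h4d (chr13:23581527-23581550, plus strand): cattggtatTATAAAagccaggaa
H3f3b (chr11:116024517-116024540, minus strand): cagcgtctcTATAAAtatggaggc
Hist2h2ab (chr3:96219846-96219869, plus strand): gatagatctTATAAAttcaccttt

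TATAAA was found on the gene strand in 30 of the 69 promoters (43.5%), against 8.32% of all 32851 promoters in the table, and on either strand in 50.7% against 13.6%. CCAAT was found on the gene strand in 71.0%, against 21.1%, and in 81.2% against 37.4% on either strand. All 14 H2B promoters held it, and 1 of 12 H4 promoters did. At 20 to 45 bases before the start, TATAAA occurred in 16 (23.2%), against 2.14% of all promoters. By call, TATAAA was present in 15 of 21 clustered genes that were higher in Trf2-/- testis (71.4%) and in 11 of 31 that did not pass the test (35.5%). The 27 tested clustered genes with it had a median log2 fold change of 0.43, and the 26 without it 0.24. H3f3b, the variant that rose, was also the only one with TATAAA among the 12 variants matched to a promoter. H2afx was not matched and so not searched. Neighbouring H2A and H2B genes often share a promoter region, so these promoters are not independent, and the difference between calls was not tested. In other tested protein-coding genes TATAAA was found in 6.05% of 1439 higher, 5.18% of 2490 lower and 5.61% of 7931 uncalled genes. That comparison is void as a check, since 78.6% of these genes were matched to a promoter, and it is given as a description of the matched genes. A match is a description of these letters and does not show a site in use.

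**Figure D5:**
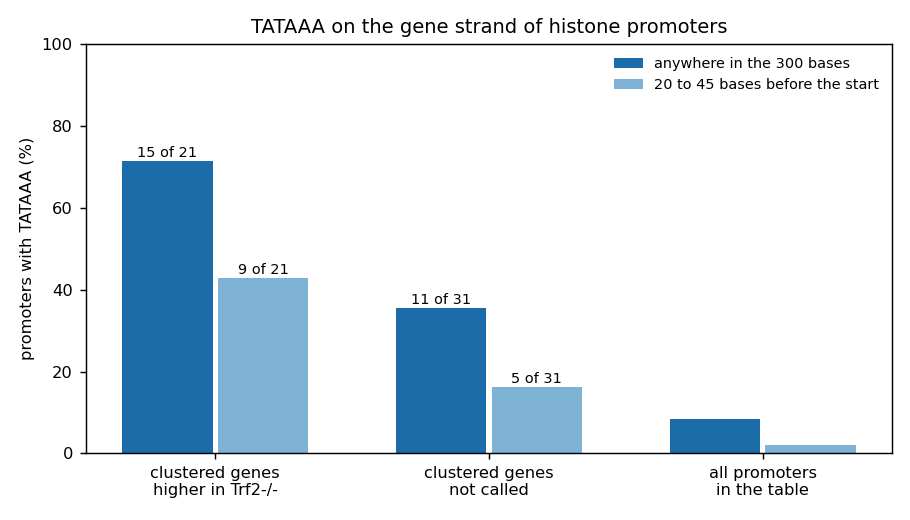
Percentage of promoters with TATAAA on the gene strand (y axis), in clustered histone genes that were higher in Trf2-/- testis, in those not called and in all promoters of the RefSeq table, dark bars for the whole 300 bases and light bars for 20 to 45 bases before the start. In the whole 300 bases the motif was in 15 of 21 higher and 11 of 31 uncalled genes, and in 8.32% of all promoters. At 20 to 45 bases before the start it was in 9 of 21 and 5 of 31, and in 2.14% of all promoters.

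Of 16 tested genes for the transcription and 3′ processing of replication-dependent histone RNA, 6 were lower and 1 higher, where 20.2% of all tested genes were lower and 11.2% higher, with a median log2 fold change of -0.04. Slbp, which binds the stem-loop, was at 0.00 ± 0.05 (SE) and Npat, the activator of the clustered genes, at 0.03 ± 0.06, neither past the threshold. Coil, the coilin of Cajal bodies, had a log2 fold change of -0.64 ± 0.11 (SE), adjusted p = 0.00236, and Mif4gd, which links Slbp to translation, of -0.74 ± 0.05 (SE), adjusted p = 0.000153. Cpsf2 (-0.42), Ncbp1 (-0.48), Srrt (-0.27) and Cstf2t (-0.18) were the other lower genes and Cstf2 (0.20) the higher one. Of 20 tested genes of DNA replication, 3 were lower (Rrm1, Mcm7 and Gins2) and 2 higher (Prim1 and Mcm5), near the shares of all tested genes, with a median of 0.10. Pcna was at 0.14 and did not pass.

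Markers of the cells in the testis moved with the genotype as well. Summed early spermatocyte markers were at 1501 to 1534 CPM in WT and 1690.0 to 1807 in Trf2-/- mice, with 3 of 7 genes higher (Sycp1, Sycp3 and Hormad1). Spermatogonial markers were at 270.2 to 289 and 279 to 366 CPM, with 1 of 9 higher. Pachytene markers were at 6097 to 6564 CPM in WT and 3996 to 4842 in Trf2-/- mice, with all 8 lower. Round spermatid markers were at 994 to 1038 and 439 to 655 CPM, with 9 of 10 lower. Elongating spermatid markers were at 4.22 to 5.29 and 0.253 to 0.815 CPM, with both tested genes lower. The untested Prm2, Prm3 and Smcp had 0 counts in every Trf2-/- mouse, but also few in WT (0, 1 and 1, then 2, 1 and 0, then 1, 4 and 3). Tnp1, also untested, had 1, 4 and 1 counts in WT and 1 in each Trf2-/- mouse. Sertoli cell markers were at 1434 to 1580 and 1681 to 1872 CPM, with 4 of 7 higher. Leydig cell markers were at 181 to 359.6 and 185 to 326 CPM, with 1 of 6 higher, and macrophage markers were at 176 to 199 and 201 to 397 CPM, with 5 of 7 higher. Hils1 moved in the direction of the round spermatid markers, and Hist1h1t, a pachytene gene, did not pass. Hist1h2aa and Hist1h2ba, the other spermatocyte variants, were higher (log2 fold changes of 0.68 and 0.18), where all 8 pachytene markers were lower. Fold changes above 0, the direction of the 22 higher clustered genes, were found in 54.9% of all tested genes. They were found in 6 of 7 early spermatocyte, 8 of 9 spermatogonial, 7 of 7 Sertoli cell, 4 of 6 Leydig cell and 7 of 7 macrophage markers. Among pachytene, round spermatid and elongating spermatid markers they were found in 0 of 8, 0 of 10 and 0 of 2. The part of these cells in the histone values was not tested. Trf2-/- mouse 1 had the highest macrophage sum, and without it 25 histone genes were higher. Trf2-/- mouse 3 had the highest spermatogonial and Sertoli cell sums, and without it 20 were higher. That mouse also had the lowest pachytene, round spermatid and elongating spermatid sums (3996, 439 and 0.253 CPM) and the smallest library (15187062 counts). A link between these sums and the calls was not tested.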

How the data were processed

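Total RNA of 6 testes was depleted of ribosomal RNA and sequenced as stranded, single-end libraries. The authors aligned reads to NCBIM37 (mm9) with Tophat and used DESeq2 to normalise and quantify. Their processing notes name CASAVA 1.8.2, TopHat2 2.0.10, Bowtie2 2.1.0, HTSeq 0.5.4p3 and DESeq2 1.0.19. The counting mode, strand setting, treatment of reads with several matches and annotation release are not given in the sources used here. The raw read counts per gene deposited by the authors were used, and 12 columns of normalized values were not.

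Counts of all 26743 genes were filtered with filterByExpr (16924 kept), scaled by TMM and tested with edgeR 4.0.16 (R 4.3.3) in its quasi-likelihood test of 3 Trf2-/- against 3 WT mice, without covariates, with Benjamini-Hochberg adjustment over all tested genes and a threshold of 0.05. CPM use TMM-scaled library sizes, and levels per length divide CPM by the gene length of the table. The script was tested on simulated counts with 200 changed genes. DESeq2 1.42.0, other scalings and filters, a replicate block and each mouse left out were the alternatives.

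The histone genes, lists and markers were chosen with earlier results of these data known. Genes were named if they were testis-specific or replacement variants, among the 15 called genes of each direction with the largest fold change, or highest per length in their class. Hist1h2an, Hist4h4, Hist1h2bn, Hist1h2ak, Hist2h2bb, Hist2h3c2, H2afy3 and the further genes that passed the test or were not tested were named after their values were seen. Stem-loops, overlaps and unique windows of 50 bases came from NCBIM37 with its GENCODE vM1 annotation, in which 75 of the 76 genes have the coordinates of the table. The mice are separate animals by the labels. Every pair of libraries of a genotype differed by more than sampling noise.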

Additional observations from a re-analysis of the deposited data

How the results depend on the processing

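The counts of histone genes were 23 higher and 3 lower under DESeq2's size factors and under its Wald test, with the same genes called as by edgeR. Scaling by library size alone, which moves the median log2 fold change of all genes from 0.04 to 0.13, gave 37 higher genes and ratios of summed CPM of 1.24 for all histone genes and 1.14 for the core variants. It also turned the sign of H2afx (0.0638), H2afz (0.0596) and Hist1h1t (0.0039), none of which passed the test, and it added calls for H3f3a, H2afv and H2afy among the variants. An adjusted p of 0.01 left 11 higher genes, and requiring 10 counts in every mouse removed Hils1 and left 0 genes at least 2-fold lower. With 1 mouse left out, 12 to 25 genes were higher, with 12 without WT mouse 1 and 14 without Trf2-/- mouse 2. Then 2 to 4 were lower, and 1 to 3 at least 2-fold lower, with 2 without WT mouse 1 and 3 without Trf2-/- mouse 1, where Hist1h2bn was the 1 lower Hist1 gene. No histone gene was called at least 2-fold higher in any of these 6 fits. Their log2 fold changes ran from -0.0817 to 0.0365 for H2afx, -0.0610 to 0.0684 for H2afy2 and -0.0800 to 0.0105 for H2afz. The causes were not tested. Same-numbered mice did not vary together (correlations of -0.10, -0.03 and -0.10), and no mouse correlated best with its own number. With the replicate number as a block, 23 genes were higher and 3 lower, of which 21 of the higher genes were shared. Hist1h1b (adjusted p = 0.0756) and Hist1h2ah (0.0528) were lost and Hist1h2ak (0.00251) and Hist1h4c (0.0435) gained in edgeR's quasi-likelihood test. Low counts limit Hils1, H1fnt and H2afb1, and shared sequence limits the repetitive clustered genes.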
